A study of Mus musculus with 2 samples.

Results

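The protein kinase C family and its protein kinase D relatives were examined in MIN6, an insulin-secreting cell line derived from a mouse beta cell tumor. The members are 10 genes, Prkca, Prkcb, Prkcd, Prkce, Prkch, Prkci, Prkcq, Prkcz, Prkd1 and Prkd2, out of 20653 mouse genes that could be named on the arrays. Every probe whose RefSeq accession belongs to one of them was taken, which gave 15 probes. The cells, from a transgenic C57Bl/6 mouse and at passages 15 to 20, had been infected with lentivirus packaged from PLVX-IRES-ZsGreen-mFTO (FTO) or from the empty PLVX-IRES-ZsGreen vector (control), so both groups carry the virus and the green marker. The treatment label of the first is spelled FTP overexpression. Cy3-labeled total RNA of each group was measured on 1 Agilent array, and both arrays were on the same slide and in the same scan. No difference below therefore has a replicate check, and no test across samples or p-value was possible.

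Protein kinase C enzymes are serine and threonine kinases that relay signals from receptors coupled to phospholipase C. The conventional isoforms, PKCα and PKCβ, respond to calcium and to the lipid diacylglycerol. PKCδ, PKCε, PKCη and PKCθ respond to diacylglycerol without calcium, and the atypical isoforms PKCι and PKCζ respond to neither and work with polarity proteins. Protein kinase D is itself a diacylglycerol-binding kinase that protein kinase C switches on. In beta cells these kinases are known for amplifying insulin secretion after muscarinic or fatty acid receptors are engaged, and in T cells PKCθ is known for carrying the antigen receptor signal to NF-κB through a complex that holds BCL10 and MALT1.

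Of the 10 genes, 9 were well above background on both arrays, with 14 of the 15 probes. This flag is set by the scanner software for a spot that is clearly brighter than its background. The other gene, Prkch, failed this criterion on both arrays. MIN6 cells thus gave a signal for both conventional isoforms, for both atypical isoforms, for both protein kinase D genes, and for Prkcd, Prkce and Prkcq among the calcium-independent isoforms. Of the beta cell markers 14 of 14, Ins1, Ins2 and Pdx1 among them, were well above background on both arrays. Ins1 had signals of 215620 on the FTO array and 220341 on the control array, and Ins2 of 276722 and 320363. Of all probes used, 82.0% passed the flag on the FTO array and 84.9% on the control array. Passing it therefore does not check the identity of the cells.

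As a check of the overexpression, the single probe of Fto (NM_011936) had a signal of 7301 on the FTO array and 5179 on the control array, a log2 difference of 0.06 after normalization. This is smaller than its spot error of 0.20, so this probe does not check the labels in either direction, and the directions given here are those of the labels. FTO protein was measured in the study by Western blot, which was not analysed here. The construct holds the coding sequence from start to stop codon, and where the probe lies in the transcript is not given in the sources used here, so whether it reports the transgene was not tested. Over both arrays 39417 probes were used, of which 82.0% were well above background on the FTO array and 84.9% on the control array. The FTO array was brighter as a whole before normalization. The median ratio of FTO to control signal was 1.28 over the probes detected on both.

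Because Prkcq was the member that the study went on to measure by quantitative PCR, the primers it designed for this gene are shown 5′ to 3′, all in lower case.
mPRKCQ-F: atggacaaccccttctaccc
mPRKCQ-R: tctcctctcactcccagcct
The PCR values themselves were not analysed here.

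The start sites of Prkcq, the called member, and of Prkcb, whose probes both differed by more than their spot error, are also shown, from 250 bases before to 50 after the start in the RefSeq annotation of GRCm38.p6. Capitals mark each CG dinucleotide. Prkcq lies at chr2:11172132-11172431 on the + strand, and Prkcb at chr7:122288875-122289174 on the + strand.
Prkcq: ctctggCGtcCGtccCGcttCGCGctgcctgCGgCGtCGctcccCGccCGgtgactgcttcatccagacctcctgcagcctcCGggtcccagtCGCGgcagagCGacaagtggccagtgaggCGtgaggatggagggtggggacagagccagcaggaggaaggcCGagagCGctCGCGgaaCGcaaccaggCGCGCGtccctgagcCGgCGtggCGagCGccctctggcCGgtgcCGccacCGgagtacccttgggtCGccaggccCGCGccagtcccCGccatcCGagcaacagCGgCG
Prkcb: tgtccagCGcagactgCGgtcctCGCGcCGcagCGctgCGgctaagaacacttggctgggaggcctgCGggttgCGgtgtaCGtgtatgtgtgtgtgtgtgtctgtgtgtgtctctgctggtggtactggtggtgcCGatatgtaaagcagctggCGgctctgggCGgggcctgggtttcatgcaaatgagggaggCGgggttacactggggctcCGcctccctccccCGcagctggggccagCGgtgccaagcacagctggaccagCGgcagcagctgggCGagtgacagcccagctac
The Prkcq window holds 37 CG dinucleotides, more than 94.4% of the 32851 mouse promoter windows, and its GC content is 73.0%. The Prkcb window holds 19 (more than 71.9% of windows), that of Prkca 42 and that of Prkd1 43. Windows were found for 8 of the 10 genes, 12 windows in all. The motif TATAAA, searched on both strands, occurs in 1 of them, a Prkcd window, and in 13.6% of all windows. These counts describe the letters only.

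Among the conventional isoforms, Prkca encodes PKCα, a kinase that moves to the plasma membrane when calcium rises. Its probes (NM_011101) had signals of 13901 and 15573 on the FTO array and 9327 and 10515 on the control array, before normalization. Prkcb, which encodes PKCβ, had probes (NM_008855) with signals of 8891 and 7365 on the FTO array and 5528 and 4481 on the control array. All of these spots were far above background, with signals at least 446 times that of the dimmest detected probe of the same array.

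**Figure D1:**
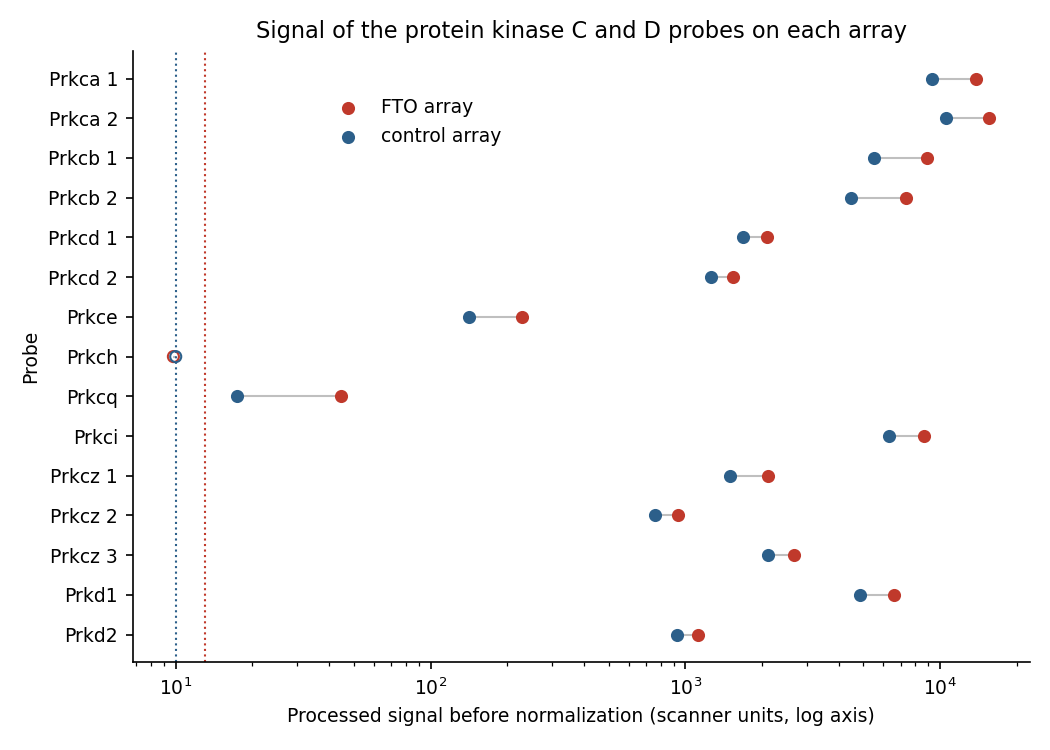
Processed signal of each of the 15 probes before normalization, in scanner units on a log axis, on the FTO array (red) and the control array (blue), with numbers after a gene marking its probes. Open circles are not well above background, and dotted lines mark the dimmest detected probe, 13.1 on the FTO array and 10.1 on the control array. Prkch lies under these limits and Prkcq just above them, while the other genes lie between 142 and 15573.

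Among the calcium-independent isoforms, Prkcd encodes PKCδ, a kinase known for its part in cell death as well as secretion. Its probes (NM_011103) had signals of 2095 and 1540 on the FTO array and 1684 and 1262 on the control array. Prkce, which encodes PKCε, had a probe (NM_011104) with a signal of 229 on the FTO array and 142 on the control array. Both genes were thus detected, and Prkce was the second dimmest detected member.

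Prkcq encodes PKCθ. Its single probe (NM_008859) had a signal of 44.6 on the FTO array and 17.4 on the control array. These are 3.41 and 1.73 times the signal of the dimmest detected probe of the same array. By its brightest probe, Prkcq stood 9th of the 10 genes on both arrays, above Prkch. This is an order of spot brightness, which also depends on each probe's sequence, and not an order of transcript amounts. Of all probes used, 30.7% were dimmer on the FTO array and 19.4% on the control array.

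Prkch encodes PKCη, known mostly from epithelia. Its probe (NM_008856) had a signal of 9.78 on the FTO array and 9.99 on the control array. It passed the software's weaker test for a signal above background on both arrays but not the stricter one used here, so no fold change is given.

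Among the atypical isoforms, Prkci, which encodes PKCι (also called PKCλ in the mouse), had a probe (NM_008857) with a signal of 8679 on the FTO array and 6285 on the control array. Prkcz, which encodes PKCζ, had 3 probes (NM_008860) with signals of 2108, 933 and 2680 on the FTO array and 1502, 764 and 2117 on the control array. The Prkcz probes differ in brightness on each array. Probe sequence and the transcript variants that each probe reports cannot be told apart here, since probe positions are not given in the sources used.

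Of the protein kinase D genes, Prkd1 (NM_008858) had a signal of 6613 on the FTO array and 4865 on the control array. Prkd2 (NM_178900) had a signal of 1126 on the FTO array and 925 on the control array. Prkd1 and Prkd2 encode kinases that act at the trans-Golgi network, where secretory vesicles form.

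A close relative outside the list was detected too. Prkd3, the remaining protein kinase D gene, had a probe (NM_029239) that is printed 10 times on each array. Its signals ran from 97.5 to 132 with a median of 111 on the FTO array, and from 86.2 to 110 with a median of 99.3 on the control array. The ranges of the spots overlap, and the SD between the spots of this probe was 0.13 on the log2 scale on the FTO array and 0.10 on the control array. Another Prkd3 probe (NM_001171004), in a block where repeated spots lost signal, had signals of 535 and 443. After normalization the log2 differences of the Prkd3 probes were -0.03 and -0.07.

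To compare the conditions, the log2 signals were quantile normalized over both arrays, as in the study, and the control value was subtracted from the FTO value. A call needed a probe that was detected on 1 or both arrays and differed by more than 2-fold, a log2 difference over 1 or under -1. By this rule 1 of the 9 detected members was called, Prkcq, and it was higher on the FTO array. Over all 18513 named genes tested, 3.21% were called in either direction and 1.31% were called higher, so a call in 1 of 9 members is a count too small to set the family apart.

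**Figure D2:**
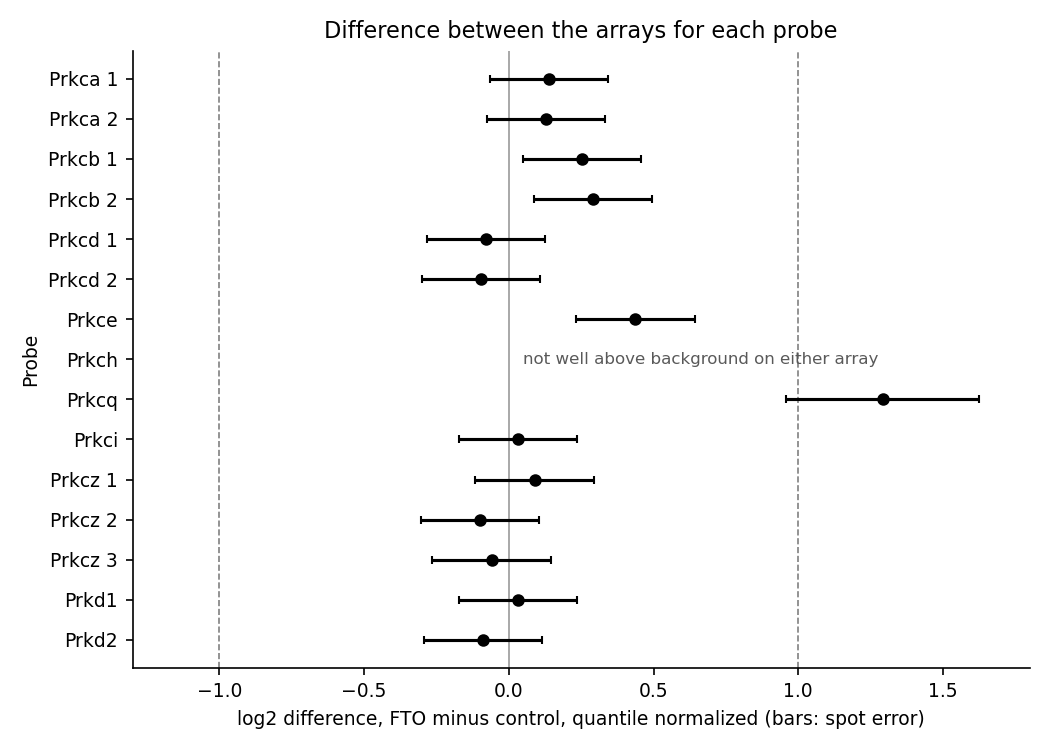
log2 difference of each probe, FTO minus control, after quantile normalization. Bars are the spot error, which combines the scanner software's error estimates of both spots, and dashed lines mark 2-fold. Prkcq lies at 1.29, and the other detected probes lie between -0.10 and 0.44.

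The other 8 detected genes, with 13 probes, lay between -0.10 (Prkcz) and 0.44 (Prkce). Of the 14 detected probes 9 were above 0 and 5 below, and in 4 of them the difference was larger than the spot error, which ran from 0.20 to 0.33. These were the Prkcb probes, Prkce and Prkcq.

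Prkcb had log2 differences of 0.25 and 0.29 at its probes, each with a spot error of 0.20. They agree to 0.04, and neither was within a block of the array where repeated spots lost signal. Among probes of like signal, within 0.5 on the log2 scale and detected on both arrays, 8.40% and 6.23% differed by at least this much in either direction. The log2 difference of Prkce was 0.44, its spot error was 0.21, and 15.5% of probes of like signal differed by at least as much. In the settings that scale the arrays to each other, the Prkcb probes lay between 0.25 and 0.30 and Prkce lay between 0.27 and 0.44. With no scaling, which keeps the greater brightness of the FTO array, the Prkcb probes lay at 0.69 and 0.72 and Prkce at 0.69.

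Prkca had log2 differences of 0.14 and 0.13, Prkci of 0.03 and Prkd1 of 0.03. Prkd2 was at -0.09, and the Prkcd probes were at -0.08 and -0.10. The Prkcz probes lay on both sides of 0, at 0.09, -0.10 and -0.06. Each of these differences was smaller than its spot error of 0.20, and the direction of Prkd1 turned among the settings that scale the arrays, which placed it between -0.02 and 0.04. With no scaling all 14 detected probes were above 0. One of the Prkcd probes, with a signal of 1540 on the FTO array, lies in a block where repeated spots lost signal, and its difference was 0.02 from that of the other probe. At a mean log2 signal of 9 or more, where most members lie, 0.308% of the probes detected on both arrays were called.

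The log2 difference of Prkcq was 1.29, a 2.45-fold difference between single spots, and its spot error was 0.33. Before normalization the ratio was 2.56, against 1.22 to 1.64 for the other detected members. Of the 3483 probes with a mean log2 signal between 4.5 and 5.5 and well above background on both arrays, 5.14% were called, 80 of them higher and 99 lower on the FTO array. A difference of the size of Prkcq or more, in either direction, was found in 82 of them (2.35%). The spread between spots at this brightness is wide. Over the spots of probes printed 10 times, the typical log2 SD was 0.32 at log2 signals of 4 to 5 on the control array, where Prkcq lies. It was 0.20 at 5 to 6 on the FTO array, where Prkcq lies there, and 0.05 on both arrays at 12 to 13, where Prkd1 lies. The Prkcq probe itself is in none of the blocks with lost signal.

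The difference at Prkcq was in the processed signal more than in the median pixel of the spot. The raw median brightness was 74.0 on the FTO array, over a local background of 35.0, and 63.0 on the control array, over a local background of 29.0. The background-subtracted medians are thus 39.0 and 34.0. They are not on the scale of the processed signal. The Prkch spot of the FTO array, for example, had a background-subtracted median of 31.5 and a processed signal of 9.78. Spots of the FTO array with the same raw median to within 1 unit, 587 in all, had a median processed signal of 22.3, and all but the lowest 2.5% and the highest 2.5% of them lay between 16.8 and 31.99. The Prkcq spot, at 44.6, was the brightest of the 587. On the control array 900 spots of the same raw median had a median processed signal of 16.1, and Prkcq, at 17.4, lay inside their central range of 12.7 to 21.1. The processed signal of Prkcq was 1.997 times the typical one on the FTO array and 1.08 times on the control array. For every other member the factor lay between 0.88 and 1.20 on the FTO array and between 0.89 and 1.20 on the control array.

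**Figure D3:**
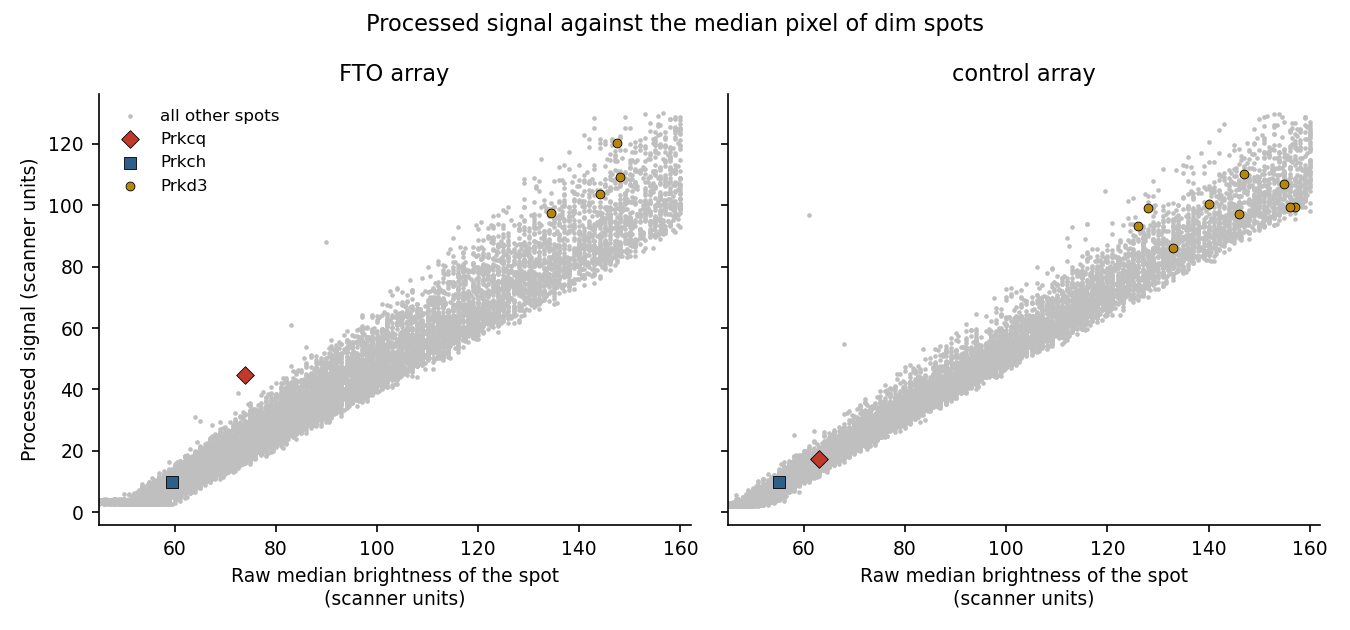
Processed signal against raw median brightness of the dim spots of each array, both in scanner units. Grey points are spots of other probes, and colored symbols are the spots of Prkcq, Prkch and the Prkd3 probe printed 10 times that fall in this range. The Prkcq spot lies above the band of spots on the FTO array, at 44.6 for a raw median of 74.0, and inside the band on the control array.

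With each processed signal replaced by the typical one for its raw median, a setting chosen after the data had been seen, the log2 difference of Prkcq was 0.42. Of the 179 called probes of like signal, 149 were still called in the same direction under this setting. With the background-subtracted median pixel it was 0.14, and 42 of the 179 were still called. On the FTO array the spot had the largest width recorded there, which 3592 of 43020 spots share. What made the processed signal of this spot high for its median pixel was not tested.

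Scaling by the 75th percentile of each array placed Prkcq under 2-fold, at 0.93. Background correction by normexp, which also starts from the median pixel, placed it at 0.061. This setting also added an offset of 50 to every signal, which shrinks the log2 differences of dim probes. Under it 62 named genes were called, against 594 with quantile normalization. For a probe as dim as that of Prkcq it is thus no check of a call. The part of the offset in the value of 0.061 was not tested. In the other settings that scale the arrays, which start from the processed signal, Prkcq lay between 1.19 and 1.29. In the authors' deposited log2 values it lay at 1.29. With no scaling it lay at 1.36.

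**Figure D4:**
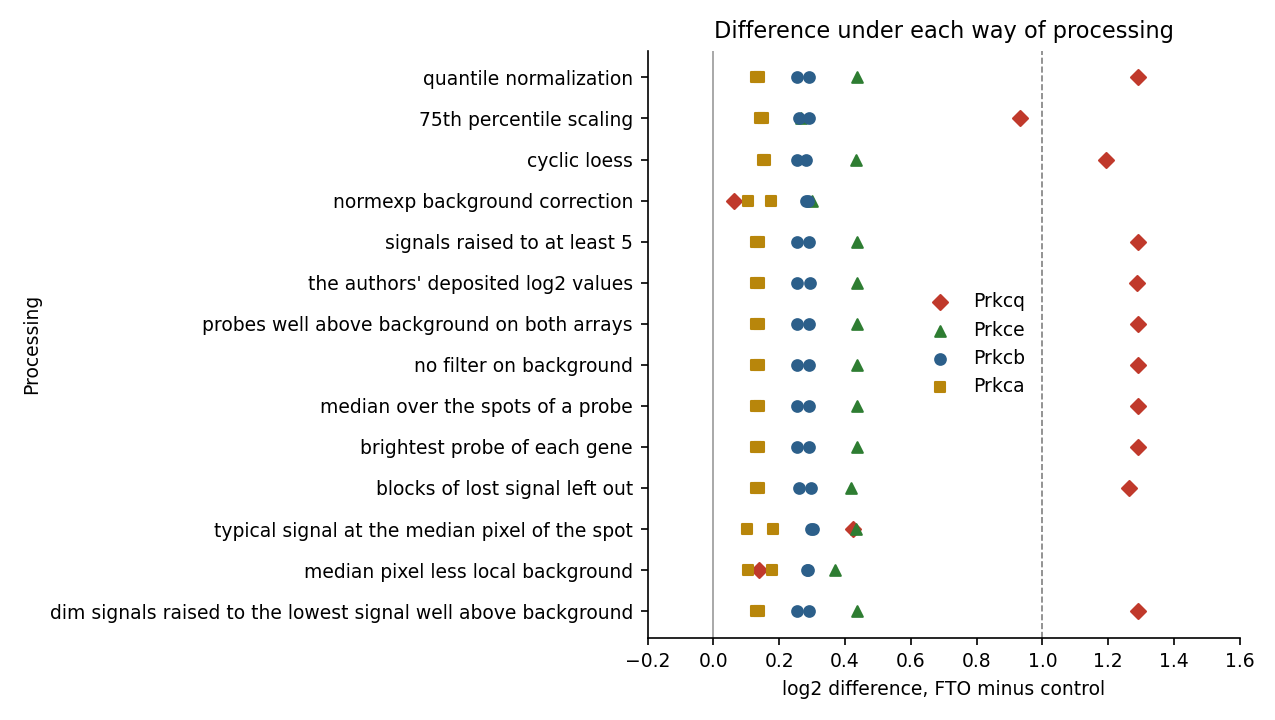
log2 difference, FTO minus control, of the probes of Prkcq, Prkce, Prkcb and Prkca under each way of processing that scales the arrays to each other, with the dashed line at 2-fold. Prkcq moves from 1.29 to between 0.061 and 0.42 in the 3 settings that start from the median pixel, while Prkcb stays between 0.25 and 0.30. The lowest Prkcq value, 0.061, is from normexp, which also adds an offset of 50 that shrinks the differences of dim probes.

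PKCθ is best known from T cells, so T cell markers were looked at beside it. Of 11 such markers 10 were well above background on both arrays, and none of these was called. Of all probes used, 82.0% passed this flag on the FTO array and 84.9% on the control array, so passing it is no sign of T cells. By the brightest probe of each gene, their log2 differences lay between -0.24 (Lck) and 0.38 (Cd247), with a median of 0.16, while a dimmer probe of Cd4 lay at -0.39. Cd247 was dim, with signals of 16.3 on the FTO array and 12.5 on the control array, and its spot error of 0.44 was larger than its difference. Cd2 was dim too, with signals of 19.2 and 19.6. The signals of all 11 summed to 9568 on the FTO array and 7270 on the control array before normalization. The exception was Cd3d. Most of that sum came from Cd3e, with 3906 and 2388, Lck, with 2869 and 2583, and Cd4, with 2390 and 1976. No detected marker of macrophages (4 of 6), fibroblasts (5 of 5), endothelium (4 of 4) or exocrine cells (5 of 5) was called, against 3.21% of all named genes. Lum, a fibroblast marker, lay at 0.97, Cdh5, an endothelial marker, at -0.78 and Amy2a5, an exocrine marker, at -0.72. A dimmer probe of Csf1r, a macrophage marker, lay at -0.79. Of the macrophage markers, Cd68 had no named probe and Lyz2 was detected on neither array, with signals of 11.1 and 5.01. MIN6 is a beta cell line and not a mixed tissue, so these signals are not read as a measure of other cells in the cultures. What the marker probes reported was not tested. In RNA of whole cultures, fewer cells of a kind and less RNA per cell cannot be told apart.

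The genes around these kinases were examined with a list of 90, of which 87 were detected on 1 or both arrays. None was called higher and 2 were called lower on the FTO array, against 3.21% of all named genes called in either direction. By the brightest probe of each gene, the median log2 difference was -0.02 for the list and 0.01 for all named genes. Of the 87 genes 81 lay between -0.5 and 0.5, with 41 above 0 and 46 below.

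**Figure D5:**
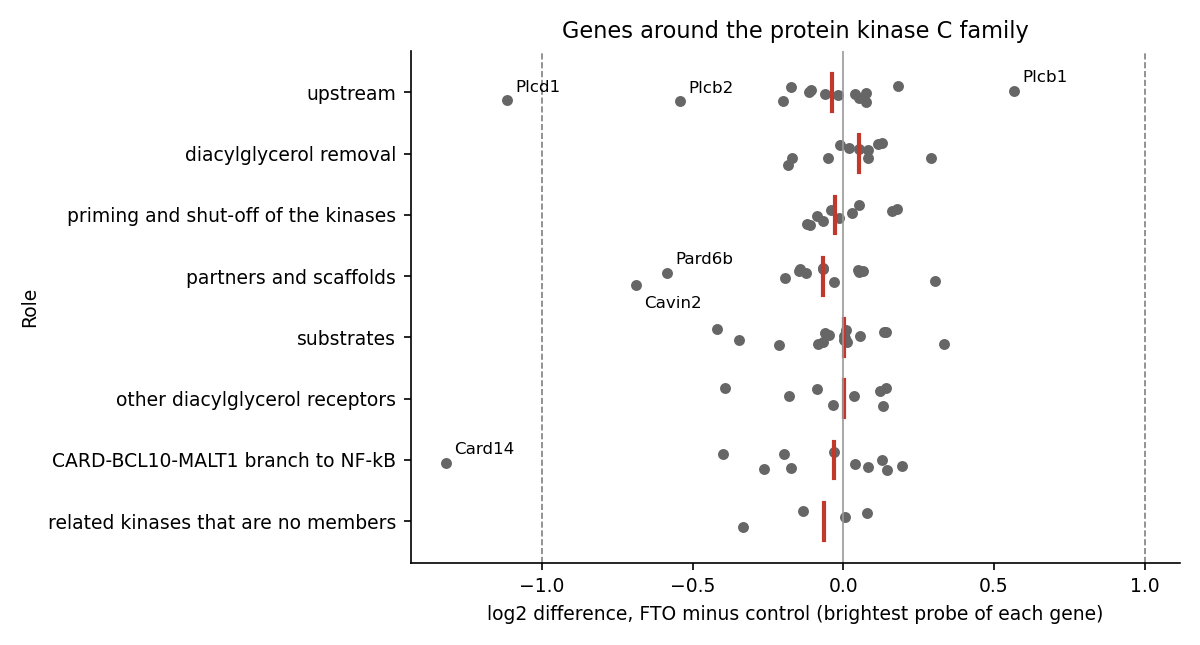
log2 difference, FTO minus control, of the brightest probe of each of 87 genes around the kinases, by role. Each point is a gene, red bars are medians, dashed lines mark 2-fold, and genes past 0.5 in size are named. Plcd1 at -1.11 and Card14 at -1.32 lie past 2-fold.

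Upstream of the kinases lie Gq-type G proteins, phospholipases C and the receptors that use them, and 14 of 15 such genes were detected. The median was -0.04. Of the brightest, Gna11 was at 0.05, Gnaq at 0.08 and Plcg2, a phospholipase C of immune receptors, at -0.11. Chrm3, the muscarinic receptor that acetylcholine uses in beta cells, was at 0.04, and Ffar1, the fatty acid receptor, was at -0.11 with signals of 51.0 and 50.4. Plcb1, chosen here after its values were seen, had log2 differences of 0.57 and 0.44 at its probes, with signals of 4620 and 1009 on the FTO array and 2347 and 580 on the control array. Plcd1 (NM_019676) had signals of 75.3 on the FTO array and 142 on the control array and differed by -1.11 on the log2 scale (spot error 0.21). Its probe lies in a block where repeated spots lost signal.

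Diacylglycerol is removed by kinases and lipases, and 11 of 11 such genes were detected, with a median of 0.05. Dgkd was at 0.08, Dgkz at -0.17 and Dagla, a diacylglycerol lipase, at 0.29. The genes that prime, fold or switch off the kinases were all detected, 10 of 10, with a median of -0.03. Hsp90ab1 and Hsp90aa1, chaperones that the kinases need to mature, were at -0.01 and -0.04, and Pdpk1, which phosphorylates their activation loop, was at 0.03. At its dimmer probes Pdpk1 lay at 0.02 and -0.26.

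Of the partners and scaffolds 13 of 13 were detected, with a median of -0.07. Rack1, the scaffold that binds active protein kinase C, was at -0.12, Sqstm1, an adaptor of the atypical isoforms, at -0.07 and Pard6g, a polarity protein that binds them, at 0.05. Of the substrates 16 of 16 were detected, with a median of 0.002. Pebp1, an inhibitor of Raf signaling, was at 0.05 and Add1, a cytoskeletal protein, at 0.004.

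Further proteins bind diacylglycerol through the same kind of domain, and 8 of 10 were detected, with a median of 0.001. Unc13b, a vesicle-priming protein, was at -0.04, Chn1 at 0.04 and Rasgrp1, an activator of Ras, at 0.13. Chn2 was at 0.14 by its brightest probe, while a dimmer probe lay at 0.94, under the limit for a call.

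The branch that links PKCθ to NF-κB was detected in full, 11 of 11 genes, with a median of -0.03. Bcl10 was at -0.26 and Malt1 at 0.08. The kinases Chuk and Map3k7, the brightest of the branch, were at 0.13 and -0.03. Card14, a scaffold protein known from skin, was called lower. Its probe (NM_130886) had signals of 90.8 on the FTO array and 194 on the control array, and differed by -1.32 on the log2 scale (spot error 0.21). The Card14 probe also lies in a block where repeated spots lost signal, so neither called gene has a value with these blocks left out. The part of the lost signal in either difference was not tested.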

How the data were processed

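The authors hybridized Cy3-labeled RNA to one-color Agilent arrays and extracted spot intensities with Feature Extraction 11.0.1.1. This software corrects for background and removes the trend across the array. Its processed signal is not the raw median less the local background. The deposited intensity values (processed signal, its error, raw median and local background, with flags and spot width) are not normalized between arrays. The deposited log2 table (33870 probes) was quantile normalized by the authors in GeneSpring GX 11.5. The rule for listing its probes is not stated in the sources used here.

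Spots flagged as outliers were left out (148 on the FTO array and 141 on the control array), and no spot was saturated. The log2 intensities of repeated spots were averaged, and both arrays were quantile normalized (limma 3.58.1, R 4.3.3). Python 3.11.15, pandas 2.3.3, numpy 2.4.6 and matplotlib 3.10.9 were used otherwise. Probes printed 10 times counted as well above background where at least 50% of their spots were. Accessions without version were matched to symbols of GRCm38.p6, which named 27224 probes, and promoter sequences came from RefSeq. Each array was divided into 35 blocks. A block was taken to have lost signal if 15% or more of its repeated spots (probes with a median log2 signal of 4.5 to 8) fell short of their own probe's median by over 0.5, which held for 6 blocks on the FTO array and 1 on the control array. The spot error combines the relative errors of both spots. The calls were also run on simulated data, with differences placed only at probes well above background on both arrays. The same small noise was added at every signal, so this does not check calls at dim probes such as that of Prkcq. The members, gene lists, markers and settings were chosen with earlier results of these data known. Every member and every probe of it is named. From the list, called genes, close relatives of the members and up to 3 examples per role, the brightest on the control array, are named. Chn2, Chrm3, Ffar1, Malt1 and Plcb1 were added after their values had been seen. Some items that this rule names are not reported here. The precision is limited by the number of arrays, 1 per condition.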

Additional observations from a re-analysis of the deposited data

How the results depend on the processing

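Prkcq, at 1.29, was moved by 75th percentile scaling to 0.93, by normexp (offset 50) to 0.061, by the typical signal at the median pixel to 0.42 and by the median pixel less local background to 0.14, and each of these 4 settings left 0 members called. Both median pixel settings were added after the data had been seen. The number of called list genes, 2, became 3 with 75th percentile scaling, which added Cavin2, 0 with normexp, 1 with the median pixel less local background and 0 without the blocks that lost signal, where fewer genes were tested. With no scaling, where the median of all named genes lay at 0.37, it was again 2, Card14 lower and Chn2 higher. The number of called named genes, 594, became 62 with normexp, 203 with the median pixel less local background, 257 if detection on both arrays was required, 317 with the blocks left out and 1111 with no filter. Higher genes were 40.9% of the calls, and 16.5% with 75th percentile scaling. All 180 values of the other member probes, Prkch included, under the alternatives that scale the arrays were within the spot error of the main value, and 12 of the 13 detected ones kept their direction, with Prkd1 as the exception. With no scaling, listed as an alternative for the signals, Prkca lay at 0.58 and 0.57, and the Prkcd (0.32 and 0.29), Prkd2 (0.28) and Prkcz (0.49, 0.29 and 0.34) probes were all above 0. No paired analysis was possible because there is 1 array per condition. Signals near background, such as those of Prkcq and Prkch, are limited by the spread between spots. Except where a setting leaves out spots or probes, the cause of these shifts was not tested.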
